A study of Mus musculus with 9 samples.

Results

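The 9 entries described here are the genes of the complex built on integrin-linked kinase, together with a pair of entries that lie over them on the opposite DNA strand. They were taken by name from the 25965 gene entries of the count table. Lims1 and Lims2 encode PINCH1 and PINCH2, Ilk encodes integrin-linked kinase, Parva, Parvb and Parvg encode the parvins, and Rsu1 encodes a partner of PINCH1. Gpr17 has exons over those of Lims2, and Taf10 has exons over those of Ilk. RNA was measured in the sciatic nerve of PINCH1 mutant mice, PINCH2 mutant mice and their control littermates, with 3 libraries in each group. All mice were on the C57BL/6 background. One library was made from 4 nerves pooled from 1 male and 1 female, so the animals within a pool cannot be told apart. Age was entered as postnatal day 15 in the stage label and as day 14 in the protocol. The sources used here do not give the mutated alleles, their exons or any Cre driver, nor is the genotype of the controls beyond the word itself.

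PINCH proteins are adaptors made of LIM domains. One PINCH, one integrin-linked kinase and one parvin bind each other into a complex that sits at the cytoplasmic tail of beta integrins and connects them to actin. Integrin-linked kinase acts mainly as a scaffold, through an ankyrin repeat domain that binds PINCH and a kinase-like domain that binds a parvin. In the peripheral nerve, Schwann cells use integrins to attach to the basal lamina, to sort axons and to myelinate them.

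Library totals were 957828 to 1204964 counts, and each library had counts in 9674 to 11240 entries. A count of 0 allowed up to 3 counts, or 2.49 to 3.13 CPM (counts scaled to a common library total), a limit for counting error only. The labelled tissue was checked by its markers: all 7 markers of myelinating Schwann cells passed the filter on low counts. Their summed level was 10912 to 12189 CPM in PINCH1 mutants, 10689 to 12599 in PINCH2 mutants and 14068 to 16161 in controls, although 0 of the 7 was called in any comparison with edgeR. In such bulk samples, fewer cells of a type and less RNA per cell cannot be told apart. Neither the counting tool nor its strand setting is given in the sources used here, so reads from a gene and from its opposite-strand partner cannot be told apart in these counts.

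The annotation places Ilk on chromosome 7, at chr7:105736592-105742925 on the plus strand (GRCm38), between Rrp8 and Taf10 on the minus strand. Of the 1795 bases of the main Ilk transcript, 1533 (85.4%), in 11 of 13 exons, also belonged to exons of the main Taf10 transcript. Among its 1356 coding bases, 1267 (93.4%) lay within Taf10 exons, and 0 of these were coding for Taf10. An Rrp8 transcript covered the exon with the Ilk start codon, and 89 bases there were coding on both strands. With the exons of Taf10 and Rrp8 combined, 1795 of the 1795 bases (100%) of this Ilk transcript had an opposite-strand exon. Rrp8 is not 1 of the 9 entries, and it is included because it overlaps Ilk.

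The following sequences show what such an overlap means for a read: the same bases spell an exon of Ilk on one strand and an exon of its neighbour on the other. They were read from the GENCODE M21 transcripts (GRCm38), 5′ to 3′. The first pair is the coding start of Ilk at chr7:105737149-105737237, where the capitals mark the start codon of Ilk and its complement, and the second pair is the start of the third exon of Ilk at chr7:105740177-105740206.
Ilk coding start, Ilk strand: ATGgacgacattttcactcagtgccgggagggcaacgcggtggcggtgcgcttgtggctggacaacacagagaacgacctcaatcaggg
same bases, Rrp8 strand: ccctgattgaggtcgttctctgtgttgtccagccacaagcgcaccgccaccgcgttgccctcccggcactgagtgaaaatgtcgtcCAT
Ilk exon 3 start, Ilk strand: ggatgatcatggcttctcccccttgcactg
same bases, Taf10 strand: cagtgcaagggggagaagccatgatcatcc

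The overlap of Lims2 (chr18:31931507-31958619, plus strand) with Gpr17 (chr18:31942997-31949636, minus strand) was much smaller. Only 188 of the 1870 bases of the main Lims2 transcript (10.05%), in 2 of its 10 exons, lay over Gpr17. These 188 bases were 18.4% of the 1023 coding bases of that transcript and 3.62% of the 5195 exon bases of Gpr17. The remaining entries had 0 opposite-strand partners by exon. These were Lims1 (chr10:58323466-58424691, plus), Parva (chr7:112427505-112591692, plus), Parvb (chr15:84232043-84315688, plus), Parvg (chr15:84324026-84342978, plus) and Rsu1 (chr2:13076967-13271431, minus). Opposite-strand genes overlap the span of 3 of them without an overlap of exons, Gm23058 at Lims1, Parvaos at Parva and Gm27540 at Rsu1.

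**Figure D1:**
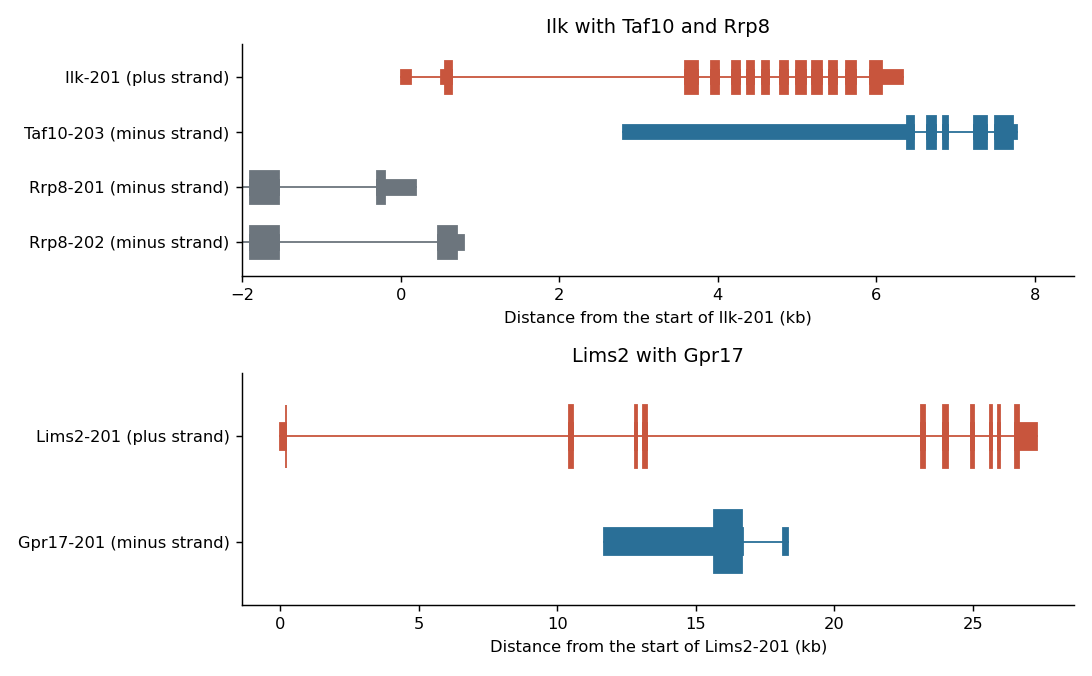
Exons of the main transcripts of Ilk and Taf10 with 2 transcripts of Rrp8 (top) and of the main transcripts of Lims2 and Gpr17 (bottom), drawn to scale by distance in kb, with tall boxes for coding and low boxes for noncoding sequence. The last exon of Taf10 spans 11 of the 13 Ilk exons, while Gpr17 lies over 2 of the 10 Lims2 exons.

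The level of each entry was compared per kilobase of exon. Taf10 averaged 2189 CPM per kb over the 9 libraries and ranked 8 of 25965 entries by CPM. Ilk averaged 63.2 CPM per kb and Gpr17 44.3, and in controls these levels were 58.2 ± 5.40 and 54.7 ± 15.0 CPM per kb (SD, n = 3), which did not differ beyond their spread. Parva followed at 2.997 CPM per kb, then Rsu1 at 1.25, Lims2 at 1.09 and Lims1 at 0.655. In controls, Lims2 had 1.57 ± 1.35, Rsu1 1.34 ± 0.524 and Lims1 1.06 ± 0.383 CPM per kb (SD, n = 3), so these neighbours were within their spread too. Parvg had 1 read in all 9 libraries and Parvb had 0.

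**Figure D2:**
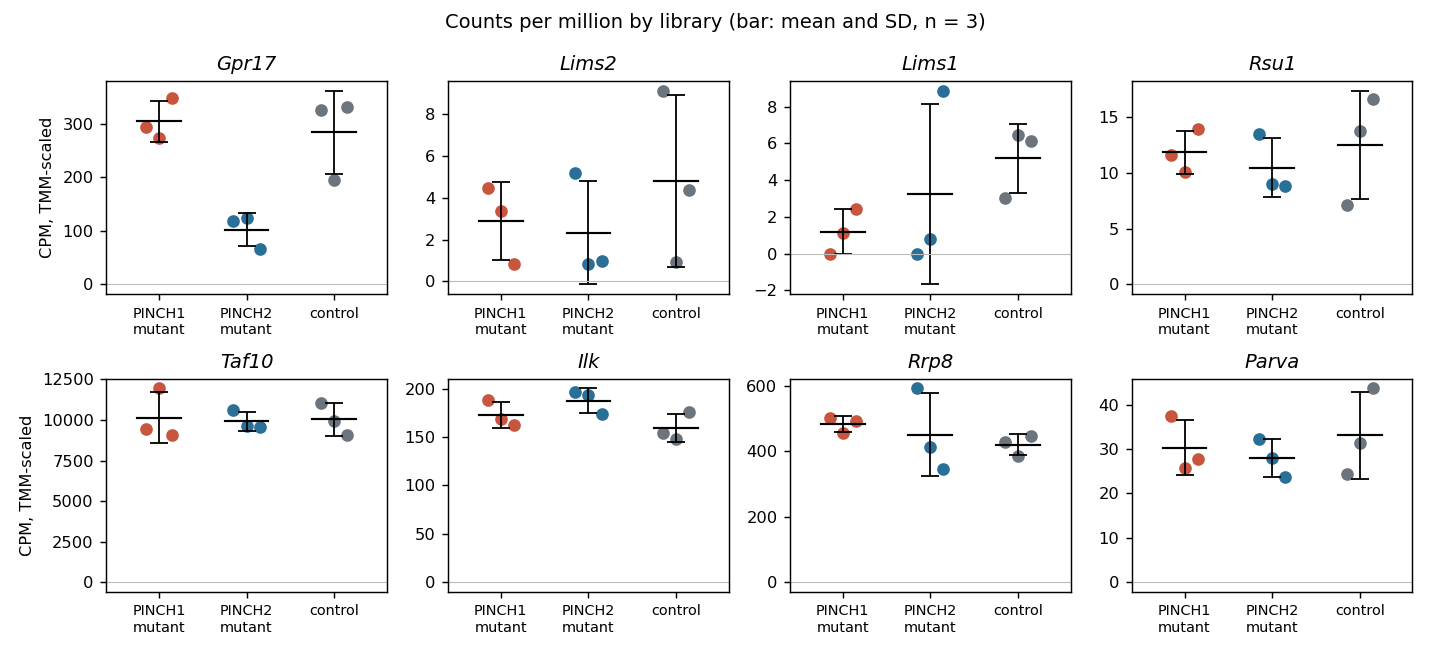
CPM after edgeR's trimmed-mean (TMM) scaling of 7 of the 9 entries and of Rrp8 in each library, by genotype; points are libraries and bars show mean and SD. The Gpr17 points of PINCH2 mutants lie at 66.01 to 123.7 CPM, below those of both other genotypes.

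The mutated genes were examined first, and neither entry had enough counts to check the genotype. Lims1 had 0, 1 and 3 counts in PINCH1 mutants, 0, 1 and 9 in PINCH2 mutants, and 3, 7 and 7 in controls. The PINCH1 mutant libraries were the lowest together with 2 of the PINCH2 mutant libraries, and the highest PINCH1 mutant library tied with the lowest control at 3 counts. Scaled for depth, these libraries had 2.45 and 3.05 CPM, so the PINCH1 mutant and control groups did not overlap in CPM. Groups did not overlap in 13.7% of all tested entries in this comparison, and Lims1 was not among those tested. Lims2, mutated in the other line, had 5, 1 and 1 counts in PINCH2 mutants, 5, 3 and 1 in PINCH1 mutants, and 9, 1 and 5 in controls. These 3 groups overlapped. Both entries were removed by the filter, and in an edgeR fit without it Lims1 differed by -2.0 log2 in PINCH1 mutants from controls (95% interval -4.54 to 0.54, adjusted p = 0.806). Lims2 differed by -1.03 log2 in PINCH2 mutants from controls (95% interval -3.42 to 1.37, adjusted p = 0.905). Intervals this wide hold both no difference and a large loss.

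Low counts in this table were also mostly odd numbers. Of the 70648 values from 1 to 20 in the table, 78.6% were odd, against 50.1% of the 14720 values over 50. The lower range starts at 1, so values that thin out upward raise its odd share by themselves, and that part was not computed. Among the members, 9 of 9 Lims2 values, 9 of 9 Rsu1 values and 7 of 9 Lims1 values were odd, the last being every Lims1 value above 0. By contrast, 2 of 9 Parva values and 5 of 9 Ilk values were odd. A difference of a few counts in Lims1, Lims2 or Rsu1 therefore stands on numbers that do not fall evenly, and the part this played in their values was not tested.

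Gpr17, a G protein-coupled receptor best known from immature oligodendrocytes of the central nervous system, was the member that separated the genotypes. It had 330, 244 and 425 counts in PINCH1 mutants, 113, 151 and 67 in PINCH2 mutants, and 321, 211 and 380 in controls. Scaled for depth, it averaged 305 ± 38.5 CPM in PINCH1 mutants, 102 ± 31.7 in PINCH2 mutants and 284 ± 77.8 in controls (SD, n = 3 each). PINCH2 mutant libraries were lower than each library of the other 2 genotypes, and PINCH1 mutants overlapped with controls.

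In PINCH2 mutants against controls, Gpr17 fell by 1.47 on the log2 scale (SE 0.24, 95% interval -1.97 to -0.98, edgeR adjusted p = 0.0212), to 0.361 of the control level. It was lower in 3 of 3 PINCH2 mutant libraries than in any control. This made 1 lower member of the 5 that passed the filter, where the share called lower over all 4738 tested entries was 0.0211%, or 1 entry, which was Gpr17 itself. That 1 was also the count of calls in either direction, likewise 0.0211%. Groups did not overlap in 9.05% of all tested entries in this comparison, and among the 5 tested members in Gpr17 only. The call did not hold in limma-voom (adjusted p = 0.15) or with only the 6 libraries compared (adjusted p = 0.107). Nor did it hold with a block for the replicate number (edgeR adjusted p = 0.0794). Over 18 alternatives, which included leaving out each library, it was made in 11, with log2 fold changes of -1.68 to -1.23 and adjusted p of 7.98e-08 to 0.191. The 11 included the fits without PINCH1 mutant replicate 1 (edgeR adjusted p = 0.0402), 2 (0.0387) or 3 (0.0213), libraries in neither group compared. The call was lost without PINCH2 mutant replicate 1 (edgeR adjusted p = 0.059) or 3 (0.186), and without control replicate 1 (0.191) or 3 (0.161).

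In PINCH1 mutants against PINCH2 mutants, Gpr17 was 2.97-fold higher, a log2 fold change of 1.57 (SE 0.24, 95% interval 1.07 to 2.07, edgeR adjusted p = 0.00288). All 3 PINCH1 mutant libraries were above all 3 PINCH2 mutant libraries. Of the 5 tested members, 1 was called higher, where 0.0422% of all tested entries were called higher and 0.0844% in either direction, and groups did not overlap in 11% of the entries. This call was made in 18 of 18 alternatives, with log2 fold changes of 1.33 to 1.75 and adjusted p of 1.22e-09 to 0.024. The 18 included the fits without control replicate 1 (edgeR adjusted p = 0.00354), 2 (0.000137) or 3 (0.0019), libraries in neither group compared. In PINCH1 mutants against controls Gpr17 differed by 0.10 log2 (SE 0.23, 95% interval -0.38 to 0.57, edgeR adjusted p = 0.976). There 0 of the 5 tested members were called, and 0 had an unadjusted p under 0.05. DESeq2 and limma-voom each called 0 as well, and over all entries 0.0633% were called and 13.7% had groups that did not overlap. The comparisons with controls share the same 3 control libraries, and the comparison between mutants shares the libraries of both.

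The cells usually known for Gpr17 left few counts in these libraries. Of 7 markers of the oligodendrocyte lineage, Olig1, Olig2 and Opalin were at 0 in all 9 libraries and 0 passed the filter. Their summed level was 1.78 to 9.81 CPM in PINCH1 mutants, 3.12 to 7.38 in PINCH2 mutants and 0 to 9.14 in controls, and these ranges overlapped. Summed levels of 4 markers of the Schwann lineage were 218 to 298 CPM in PINCH1 mutants, 242 to 311 in PINCH2 mutants and 291 to 382 in controls. The summed markers of myelinating Schwann cells moved with Gpr17 in PINCH2 mutants, at 10689 to 12599 CPM against 14068 to 16161 in controls, without overlap, and they were also below the controls in PINCH1 mutants, at 10912 to 12189 CPM. The part of these cells in the Gpr17 result was not tested.

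Gpr17 was next read together with Lims2, the gene it overlaps and the one mutated in PINCH2 mutants. Lims2 took 1.49%, 1.21% and 0.235% of the pair's counts in PINCH1 mutants. It took 4.24%, 0.658% and 1.47% in PINCH2 mutants, and 2.73%, 0.472% and 1.30% in controls. The exact 95% Clopper-Pearson intervals ran up to 9.61% in the first PINCH2 mutant library and up to 5.11% in the first control. Lims2 was the minor name at this locus in each of the 9 libraries, and the groups overlapped.

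The log2 ratio of Gpr17 to Lims2, with 0.5 added to each count, averaged 6.73 ± 1.23 in PINCH1 mutants, 5.51 ± 1.15 in PINCH2 mutants and 6.11 ± 1.03 in controls (SD, n = 3 each). It differed by 0.62 between PINCH1 mutants and controls (two-sided exact permutation p = 0.6), by -0.61 between PINCH2 mutants and controls (p = 0.5, exact permutation) and by 1.22 between PINCH1 and PINCH2 mutants (p = 0.4, exact permutation). With 3 libraries against 3, the smallest p that such a test can give is 0.1. These differences were no larger than about the spread between libraries, which at 1 to 9 Lims2 counts is wide. Gpr17 held 98.6% of the pair's counts, so a fit with both entries summed had to follow that of Gpr17 closely. With both entries summed before the fit, the locus fell by 1.46 log2 in PINCH2 mutants against controls (SE 0.24, edgeR adjusted p = 0.026). The sum was 1.55 log2 higher in PINCH1 mutants than in PINCH2 mutants (SE 0.24, edgeR adjusted p = 0.00391). In PINCH1 mutants against controls it differed by 0.09.

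**Figure D3:**
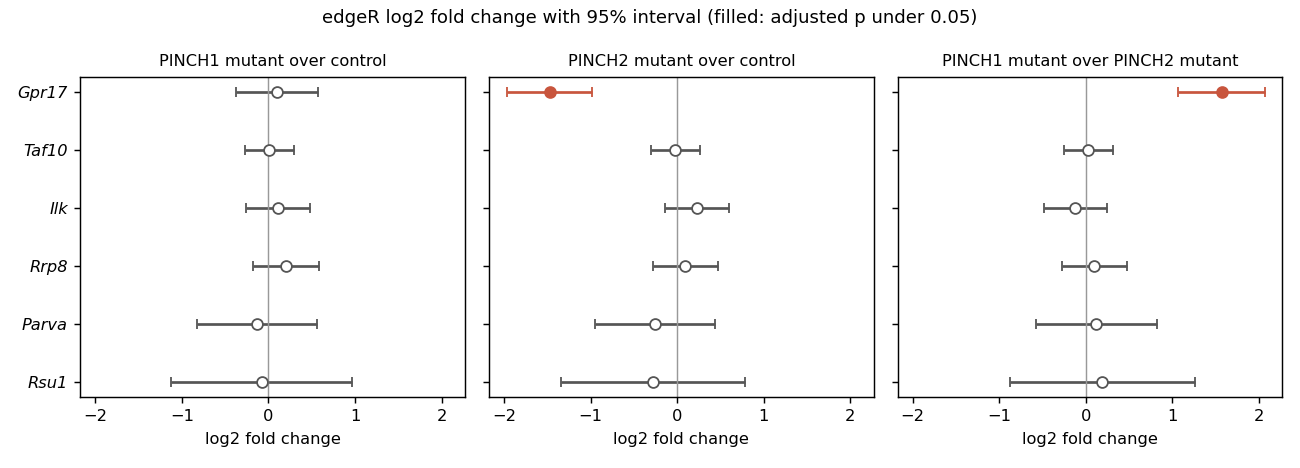
Log2 fold changes with 95% intervals from edgeR for Gpr17, Taf10, Ilk, Rrp8, Parva and Rsu1 in the 3 comparisons. Gpr17 stands at -1.47 in PINCH2 mutants against controls and at 1.57 in PINCH1 mutants against PINCH2 mutants, while the intervals of the members of the Ilk locus, Parva and Rsu1 include 0.

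Ilk and its partner were counted at similar levels in the 3 genotypes. Ilk had 211, 151 and 199 counts in PINCH1 mutants, 189, 236 and 176 in PINCH2 mutants, and 152, 161 and 202 in controls. Its level averaged 173 ± 13.3 CPM in PINCH1 mutants, 188 ± 12.6 in PINCH2 mutants and 160 ± 14.8 in controls (SD, n = 3 each). The highest control, at 176.3 CPM, overlapped with the lowest PINCH2 mutant, at 173.4. Ilk differed by 0.11 log2 in PINCH1 mutants from controls (SE 0.18, edgeR adjusted p = 0.959) and by 0.23 in PINCH2 mutants from controls (SE 0.18, edgeR adjusted p = 0.999). The 95% intervals, -0.26 to 0.48 and -0.14 to 0.60, leave room for a change of under 1 log2 unit in either line.

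Taf10, a subunit of the general transcription factor TFIID and of the SAGA coactivator, held most of the counts of the Ilk locus. It had 10578, 10696 and 11081 counts in PINCH1 mutants, 10191, 11717 and 9703 in PINCH2 mutants, and 10909, 10798 and 10421 in controls. These groups overlapped, and the scaled means were 10145 ± 1573 CPM in PINCH1 mutants, 9920 ± 588 in PINCH2 mutants and 10037 ± 993 in controls (SD, n = 3 each). The log2 fold change of Taf10 was 0.01 in PINCH1 mutants against controls (SE 0.14), -0.02 in PINCH2 mutants against controls (SE 0.14) and 0.03 between the mutants (SE 0.14). Its edgeR adjusted p was 0.991, 0.999 and 0.993 in that order. The sign of a difference this near 0 changed under other filters or scalings, to -0.0003 in PINCH1 mutants against controls with library totals alone. With a filter of at least 1 CPM it was -0.001 in PINCH1 mutants against controls, 0.001 in PINCH2 mutants against controls and -0.002 between the mutants.

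Ilk thus made up a small share of the summed counts of the whole Ilk and Taf10 entries, inside and outside their overlap. That share was 1.96%, 1.39% and 1.76% in PINCH1 mutants, 1.82%, 1.97% and 1.78% in PINCH2 mutants, and 1.37%, 1.47% and 1.902% in controls. Exact 95% Clopper-Pearson intervals were about as wide as the spread between libraries, at 1.57 to 2.10% for the first PINCH2 mutant and 1.17 to 1.61% for the first control. PINCH2 mutants lay in the upper part of this range, with 1 control library and 1 PINCH1 mutant library among them. The log2 ratio of Taf10 to Ilk averaged 5.86 ± 0.25 in PINCH1 mutants, 5.72 ± 0.08 in PINCH2 mutants and 5.97 ± 0.25 in controls (SD, n = 3 each). It differed by -0.11 between PINCH1 mutants and controls (two-sided exact permutation p = 0.7), by -0.25 between PINCH2 mutants and controls (exact permutation p = 0.3) and by 0.14 between PINCH1 and PINCH2 mutants (exact permutation p = 0.4).

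Rrp8, a nucleolar methyltransferase gene whose alternative first exons lie over the first exons of Ilk, had 563, 407 and 602 counts in PINCH1 mutants. It had 569, 505 and 350 in PINCH2 mutants, and 421, 418 and 513 in controls. Its level was 483 ± 24.9 CPM in PINCH1 mutants, 450.1 ± 127 in PINCH2 mutants and 420 ± 32.2 in controls (SD, n = 3 each). PINCH1 mutant libraries were all above the controls, at 454.7 to 501.9 against 384.7 to 447.8 CPM, but the log2 fold change of 0.20 (SE 0.18) did not pass (edgeR adjusted p = 0.874). Groups that do not overlap were found for 13.7% of all entries in this comparison. Ilk held 24.8 to 33.5% of the summed counts of the whole Ilk and Rrp8 entries, inside and outside their overlap. The log2 ratio of Rrp8 to Ilk averaged 1.48 ± 0.10 in PINCH1 mutants, 1.22 ± 0.32 in PINCH2 mutants and 1.39 ± 0.06 in controls (SD, n = 3 each).

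How lopsided these pairs were can be read against the rest of the table. Among 1229 opposite-strand pairs with at least 500 counts over the 9 libraries, the larger entry held a median of 94.9% of the pair's counts (quartiles 83.0 and 98.6%). Taf10 held 98.3% of its pair with Ilk and Gpr17 98.6% of its pair with Lims2. These shares were above those of 71.2% and 75.4% of the pairs. Rrp8 held 72.2% of its pair with Ilk, above 14% of the pairs.

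Of the parvins, which bind integrin-linked kinase and reach actin, Parva was the counted one. Parva, encoding the widely expressed alpha-parvin, had 42, 23 and 34 counts in PINCH1 mutants, 31, 34 and 24 in PINCH2 mutants, and 24, 34 and 50 in controls. Its mean was 30.3 ± 6.27 CPM in PINCH1 mutants, 27.9 ± 4.30 in PINCH2 mutants and 33.1 ± 9.77 in controls (SD, n = 3 each), and the groups overlapped. The log2 fold change was -0.13 in PINCH1 mutants against controls (SE 0.33, edgeR adjusted p = 0.976) and -0.26 in PINCH2 mutants against controls (SE 0.33, edgeR adjusted p = 0.999). The intervals, -0.82 to 0.56 and -0.95 to 0.44, were wide. Parvb, the beta-parvin gene known from heart and skeletal muscle, was at 0 in all 9 libraries, and Parvg, the gene of the parvin of blood cells, had 1 count in 1 PINCH1 mutant library. Of 7 leukocyte markers, Csf1r held 5466 counts over the 9 libraries, while Aif1 had 0 and the remaining 5 had 2 to 15 each. Their summed level, almost all Csf1r, was 495 to 614 CPM in PINCH1 mutants, 475 to 636 in PINCH2 mutants and 525 to 649 in controls. Of 5 skeletal muscle markers, Acta1 was at 0 in all 9 libraries. Ckm and Tnnt3 had 10 counts each over the 9 libraries, and Myh4 and Myl1 had 1 each.

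Rsu1, which encodes a leucine-rich repeat protein bound to PINCH1, had 13, 9 and 17 counts in PINCH1 mutants, 13, 11 and 9 in PINCH2 mutants, and 7, 15 and 19 in controls. The control libraries spanned the values of both mutants. The mean was 11.9 ± 1.93 CPM in PINCH1 mutants, 10.5 ± 2.65 in PINCH2 mutants and 12.5 ± 4.87 in controls (SD, n = 3 each). The log2 fold change was -0.08 in PINCH1 mutants against controls (SE 0.50) and -0.28 in PINCH2 mutants against controls (SE 0.51), with edgeR adjusted p of 0.986 and 0.999. With 7 to 19 counts a library, a fall of 1 log2 unit lies within both intervals and a rise of 1 outside both, -1.13 to 0.97 and -1.34 to 0.79.

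Across the 5 tested members, the median log2 fold change was 0.01 in PINCH1 mutants against controls, beside a median of -0.02 for all entries. It was -0.26 in PINCH2 mutants against controls, beside 0.00, and 0.12 in PINCH1 against PINCH2 mutants, beside -0.02. Besides Gpr17, the members Ilk, Taf10, Parva and Rsu1 were not called in any of the 3 comparisons.

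The entries whose levels followed a member most closely over the 9 libraries were ranked by the root mean square difference of centred log2 CPM, where a smaller value means a closer course. For Gpr17, which itself varied by 0.79 about its mean, Eif3a came nearest, at 0.36, followed by BC026590 at 0.42 and Adal at 0.43. Eif3a, a subunit of a translation initiation factor, averaged 45.9 CPM in PINCH1 mutants, 24.9 in PINCH2 mutants and 47.6 in controls. Eif3a, BC026590 and Adal were not called in any comparison. Rsu1 was followed most closely by Itgb1, the beta 1 integrin gene, at 0.15, then by Ammecr1l and Rsbn1 at 0.17, where Rsu1 itself varied by 0.32. Parva was nearest to Pttg1ip at 0.12, Prrg3 at 0.14 and Epb4.1l2 at 0.16. Taf10, which varied by 0.13, was nearest to Gm12758 at 0.04, Tmem191c at 0.06 and 1500011H22Rik at 0.07, and Ilk to Capn7, 1700037H04Rik and Gm12359, each at 0.09. All entries were counted in the same 9 libraries, which differ in depth and genotype, so these are descriptions without a test.

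The wider set of integrin adhesion genes that work with this complex was read from a list of 68, of which 32 passed the filter. With edgeR, 0 of the 32 were called in each of the 3 comparisons, where 0.0633%, 0.0211% and 0.0844% of all entries were called in PINCH1 mutants against controls, in PINCH2 mutants against controls and between the mutants. At an unadjusted p under 0.05, 2 were found in PINCH1 mutants against controls, 1 in PINCH2 mutants against controls and 3 between the mutants, where 302, 202 and 301 of all 4738 entries were found, so the list lay near the background. DESeq2 called 0, 0 and 1 of the list in the same order, and limma-voom 0 in each. The median log2 fold change of the list was -0.17 in PINCH1 mutants against controls, beside -0.02 for all entries, and 21 of 32 were below 0, against 52.2% of all entries. It was -0.11 in PINCH2 mutants against controls, beside 0.00, again with 21 of 32 below 0, against 49.3% of all entries. It was 0.05 between the mutants, beside -0.02.

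Among the receptors, Itga6, the laminin-binding alpha 6 integrin gene, averaged 151 ± 18.7 CPM in PINCH1 mutants, 128 ± 21.6 in PINCH2 mutants and 183 ± 10.2 in controls (SD, n = 3 each). Its log2 fold change was -0.29 (SE 0.19) in PINCH1 mutants against controls and -0.52 (SE 0.19) in PINCH2 mutants against controls, with edgeR adjusted p of 0.842 and 0.999. Itgb1, its beta 1 partner, was at 126 ± 11.3, 109.9 ± 14.7 and 118 ± 33.2 CPM in PINCH1 mutants, PINCH2 mutants and controls (SD, n = 3 each). Dag1, the dystroglycan gene, had log2 fold changes of 0.35 (SE 0.36) in PINCH1 mutants against controls and 0.05 (SE 0.36) in PINCH2 mutants against controls. Of the integrin activators, Tln1 (talin 1) differed by 0.15 and -0.01 log2 in the same order of comparisons, and Fermt3 (kindlin 3, known from blood cells) by -0.30 and -0.03.

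Pxn, which encodes the adaptor paxillin, came nearest to a call in this list. It had 282, 74 and 230 counts in PINCH1 mutants, 72, 62 and 79 in PINCH2 mutants, and 55, 93 and 145 in controls. Among PINCH1 mutants 2 libraries stood high and 1 lay within the range of the controls. The log2 fold change was 1.37 (SE 0.38, edgeR adjusted p = 0.402) in PINCH1 against PINCH2 mutants and 0.96 (SE 0.38, edgeR adjusted p = 0.656) against controls. Between the mutants it passed without the low-count PINCH1 mutant replicate 2 (1.71, edgeR adjusted p = 0.00625) and in DESeq2 (1.37, adjusted p = 0.0493). It also passed without the low-count filter (1.36, edgeR adjusted p = 6.02e-05).

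The other adhesion genes named by the rule were not called in any comparison either. Vcl (vinculin) had a log2 fold change of 0.52 (SE 0.31) in PINCH1 mutants against controls and 0.48 (SE 0.31) in PINCH2 mutants against controls. The kinase genes Tesk1 and Akt1 had 0.08 and -0.57 in PINCH1 mutants against controls, and 0.16 and 0.02 in PINCH2 mutants against controls. The GTPase genes Rac1 and Cdc42 had -0.35 and 0.02 in PINCH1 mutants against controls, and -0.26 and -0.09 in PINCH2 mutants against controls. The edgeR adjusted p of Vcl was 0.804 and 0.999 in these comparisons.

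The situation of Ilk and Lims2, in which the name of the adhesion gene holds the smaller part of a locus, was shared by other genes of the list. An opposite-strand partner in the table was found for 15 of the 68, and the partner had more counts in 10 of the 15. Almost any such pair has a smaller entry, and the share for genes outside the list was not computed. Over the 9 libraries, Vcl had 554 counts and Ap3m1 over it 43847. Tesk1 had 310 and Cd72 19362, Actn4 had 109 and Capn12 17403, and Evl had 73 and Degs2 8830. The pairs were smaller for Itga4 with 526 counts under Cerkl with 2696, and for Tln1 with 448 under Creb3 with 793. In 5 pairs the adhesion gene had more, as for Rac1 with 781 counts and Daglb with 40. Of the partners, 10 passed the filter, and edgeR called 0 of them in each comparison. Over all tested entries, 0.0633%, 0.0211% and 0.0844% were called in PINCH1 mutants against controls, in PINCH2 mutants against controls and between the mutants. At an unadjusted p under 0.05 there were 0 partners in each of the 3 comparisons, beside 302, 202 and 301 of all 4738 entries. With 10 partners, counts of 0 lie near these shares.

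**Figure D4:**
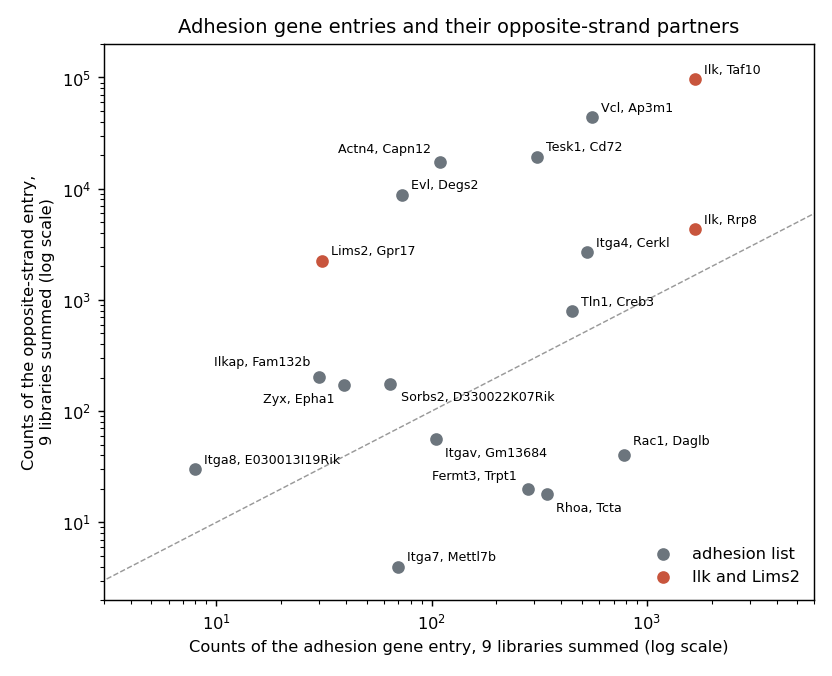
Summed counts over the 9 libraries of each adhesion gene with an opposite-strand partner (horizontal axis, log scale) and of that partner (vertical axis, log scale), with the Ilk and Lims2 pairs in red and the line of equal counts dashed. Ilk and Lims2 lie above the line with 10 of the 15 genes of the list.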

How the data were processed

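The authors deposited whole-number read counts per gene entry and library, with no scaling. Per the submitters' processing notes, their tools were HISAT2 2.0.5, cutadapt 1.9.1 and Trim Galore 0.4.2, and the build was GRCm38. Counting tool, strand setting and annotation release were not given in the sources used here. No per-sample column was left out, and 0 entries lacked a name. Groups came from the sample titles. The replicates were pools of nerves, so p-values measure the spread between pools.

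Counts were tested with edgeR 4.0.16 (R 4.3.3) by the robust quasi-likelihood F-test with TMM scaling and filterByExpr, with the 9 libraries in a shared fit that holds genotype alone. Benjamini-Hochberg adjustment ran over the 4738 entries that passed, with a threshold of 0.05. Members removed by the filter were read from the same fit without it. SE is the size of the log2 fold change over the root of F. The procedure was tested on simulated counts. Exons on the opposite strand were found with bedtools 2.31.1 and GENCODE M21, which held 96.4% of the table's gene identifiers. Its Lims2 begins at 31922290, upstream of the table's start, so the authors' annotation was another release. CPM per kb used the union of a gene's exons. Ratios of paired entries were tested with exact permutation tests in scipy 1.17.1. Alternatives were RLE, upper-quartile and library-total scaling, no filter, a filter of 1 CPM in 3 libraries, DESeq2 1.42.0, limma-voom (limma 3.58.1), overlapping pairs summed, a block for the replicate number, only the 6 libraries compared, and each library left out. For ratios, 1 count was added in place of 0.5.

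The named entries were the 9 members, each entry whose exons overlap theirs on the opposite strand, for each tested member the 3 entries closest in course, and in the adhesion list any called entry and the 2 highest by mean CPM in each role. Further partner pairs of that list were named after their values were seen. Members and lists were chosen with earlier results of these data known. Markers of 13 cell types were also read, and 0 markers were called in any comparison.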

Additional observations from a re-analysis of the deposited data

Results flagged for a closer look

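The difference between the mutants in Gpr17 was singled out because the same contrast with controls gave different values in the 2 lines, and a test of the difference itself passed. Its log2 fold change in PINCH1 mutants minus that in PINCH2 mutants came to 1.57 (SE 0.24, adjusted p = 0.00288 in edgeR), from 0.10 in PINCH1 mutants and -1.47 in PINCH2 mutants, each against the same 3 controls. The control level cancels in that subtraction, so this is the comparison between the mutants given above and not a further test. All 3 PINCH1 mutant libraries, at 272.6 to 347.4 CPM, were above all 3 PINCH2 mutant libraries, at 66.01 to 123.7 CPM. The overlapping Lims2 entry had 1 to 5 counts in either mutant, so the part of Lims2 reads in this difference was not tested.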

How the results depend on the processing

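Gpr17 was no longer called in PINCH2 mutants against controls (0 members called) in limma-voom (log2 fold change -1.47, adjusted p = 0.15), with only the 6 libraries compared (-1.48, edgeR adjusted p = 0.107) or with the replicate block (-1.45, edgeR adjusted p = 0.0794). Leaving out each library gave 0 to 1 members there, 1 to 1 between the mutants and 0 to 0 in PINCH1 mutants against controls. Whether the replicate numbers pair the libraries was not settled by their correlations. The 9 same-number pairs correlated at -0.11 to 0.25, 3 of them over 0.1, and pairs with different numbers at -0.198 to 0.144. A library correlated best with its own number in 10 of 18 cases. Of the adhesion list, 1 entry, Pxn, was called without the filter or with a filter of at least 1 CPM, in PINCH1 mutants against controls (0.98 and 0.96, edgeR adjusted p = 0.0438 and 0.038) and against PINCH2 mutants (1.36 and 1.34), and in DESeq2 against PINCH2 mutants. Leaving out libraries gave 0 to 1 for the list between the mutants and 0 to 0 against controls. The cause was not tested. Signs turned in 22 alternatives, and 0 of those with a test passed the threshold. The 4 outside leave-one-out were Taf10 in PINCH1 mutants against controls (-0.001 with a 1 CPM filter, -0.0003 with library totals), in PINCH2 mutants against controls (0.001) and between the mutants (-0.002). Ranges over left-out libraries that crossed 0 in PINCH1 mutants against controls were -0.11 to 0.23 (Gpr17), -1.23 to 0.12 (Lims2), -0.12 to 0.09 (Taf10), -0.31 to 0.12 (Parva), -0.35 to 0.18 (Rsu1) and -0.09 to 1.13 (Gpr17 to Lims2 ratio). In PINCH2 mutants against controls, Taf10 crossed (-0.08 to 0.05). Between the mutants, -2.43 to 1.23 (Lims1), -0.20 to 1.54 (Lims2), -0.09 to 0.11 (Taf10), -0.06 to 0.24 (Parva) and -0.0002 to 0.25 (Taf10 to Ilk ratio) crossed. The other ratio ranges were -0.25 to -0.001 and -0.39 to -0.15 for Taf10 to Ilk in PINCH1 and PINCH2 mutants against controls, and -1.18 to -0.04 and 0.51 to 1.80 for Gpr17 to Lims2 in PINCH2 mutants against controls and between the mutants. At 0 to 19 counts a library, differences in Lims1, Lims2, Parvb, Parvg and Rsu1 have wide or no intervals.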
